A study of Mus musculus with 8 samples.

Results

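The cytosolic ribosomal protein genes of mouse muscle fibro/adipogenic progenitors (FAPs) were examined across 8 RNA sequencing libraries. Members were the protein-coding genes whose symbol begins with Rpl or Rps and a digit, together with Rplp0, Rplp1, Rplp2 and Rpsa, leaving out pseudogene names and the Rps6k kinases, with a mean normalized value of at least 10 over the libraries. The symbols of 85 genes matched and 83 of them passed, out of 37991 genes in the data. The members were thus chosen by their symbols and selected on their mean level, so levels are given as a description. The lowest members by that mean were Rpl23a at 25.1 and Rps27rt at 42.1, and the genes just outside it were Rpl3l at 0.653 and Rpl10l at 0. The 83 comprised 42 proteins of the large subunit, 31 of the small subunit, the 3 stalk proteins Rplp0, Rplp1 and Rplp2, and 5 near copies of other members (Rpl22l1, Rps27l, Rpl39l, Rpl36al and Rps27rt). The last 2, Rpl7l1 and Rps19bp1, share the symbol pattern and are not taken to be ribosome subunits.

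FAP-ctrl 1 to 5 came from wild type muscle, and FAP-no cilia 1 to 3 from muscle of mice with a conditional deletion of floxed Ift88, a transport gene needed to build the primary cilium. All mice were of mixed background, and the FAPs were taken from the tibialis anterior 3 days after an injection of glycerol, which injures the muscle and is followed by fat deposition. Neither the driver of the deletion nor whether each library is a separate animal is given in the sources used here, so p-values measure the spread between these libraries. Values are gene read counts divided by a size factor for each library, written below as normalized counts.

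A ribosome is built from ribosomal RNA and one copy of nearly every ribosomal protein. The large subunit forms peptide bonds, the small subunit decodes the messenger RNA, and the stalk proteins recruit elongation factors. The messenger RNAs of these proteins are among the most abundant of a growing cell. Many begin with a run of pyrimidines after a cytosine, the terminal oligopyrimidine (TOP) motif, through which mTOR signalling and Larp1 set how strongly they are translated. RNA sequencing measures their RNA and not their translation.

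The start of a messenger RNA is where the TOP motif is read, so the starts of the members described below are shown. A TOP run was taken as C at the RefSeq start site followed by at least 4 letters that are each C or T, on the gene's own strand. Promoter entries were found for 63 members, and 14 of them (22.2%) had such a run at the start, against 813 of the 27025 genes of the table (3.01%). Allowing the start to lie up to 5 bases to either side, 30 members (47.6%) had one, against 21.2% of all genes. The runs had a median of 8 bases in members and the longest, in Rpl15, had 13. Each line gives 10 bases before the start and 20 from it, 5′ to 3′, from the RefSeq table of GRCm38.p6, with the TOP run in capitals where one begins at the start.
Rpl15, chr14:18270967-18270996, minus strand: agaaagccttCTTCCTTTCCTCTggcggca
Rps6, chr4:86857348-86857377, minus strand: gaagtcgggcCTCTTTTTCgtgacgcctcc
Rps10, chr17:27635225-27635254, minus strand: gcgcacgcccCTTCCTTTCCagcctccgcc
Rps21, chr2:180257369-180257398, plus strand: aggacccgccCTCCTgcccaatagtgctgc
Rplp2, chr7:141447641-141447670, plus strand: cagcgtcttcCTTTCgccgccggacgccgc
Rps27, chr3:90213629-90213658, minus strand: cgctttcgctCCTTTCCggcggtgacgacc
Rps27rt, chr9:114982720-114982749, minus strand: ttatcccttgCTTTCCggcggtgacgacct
Rps24, chr14:24490668-24490697, plus strand: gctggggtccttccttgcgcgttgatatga
Rpl10, chrX:74270806-74270835, plus strand: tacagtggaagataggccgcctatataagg

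Rps27 and Rps27rt are shown together because Rps27rt is a near copy of Rps27. Rps24 and Rpl10, the members with the smallest p in each direction below, have no TOP run at the listed start, but Rps24 has a run of 8 bases within 5 bases of a start and Rpl10 has none there. The 14 members with a run had a median level of 3627 normalized counts per kb of transcript, and the 49 without one had 5825. Their median log2 differences between the groups were 0.033 and 0.044. These are counts of letters in a window and do not show how an RNA is translated. The listed starts were not checked against the starts used in these cells. A member without a run at its listed start, Rpl10 among them, may therefore still carry one.

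Ribosomal protein RNA was abundant in every library. Read as normalized counts per kb of the principal GENCODE transcript, the 83 members had a median of 5964, with quartiles of 3696 and 9406 that differ 2.54-fold. The median of the 14266 tested genes with a transcript length was 157, and 81 of the 83 members lay above it. Of the 143 genes above the 99th percentile of those genes (9016 per kb), 23 were members. Among the highest were Rpl4, a large subunit protein, at 27601 per kb, Rps4x, the X-linked small subunit protein, at 25037, Rpl23 at 20729 and Rpl7 at 18547. The lowest were Rpl23a at 44.8, Rps27rt at 113, Rps19bp1 at 242, Rpl39l at 275 and Rpl36 at 574. With the length of all annotated exons in place of 1 transcript, 2 of the 5 highest and all 5 of the lowest were the same genes. The plot of levels per kb shows the order.

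**Figure D1:**
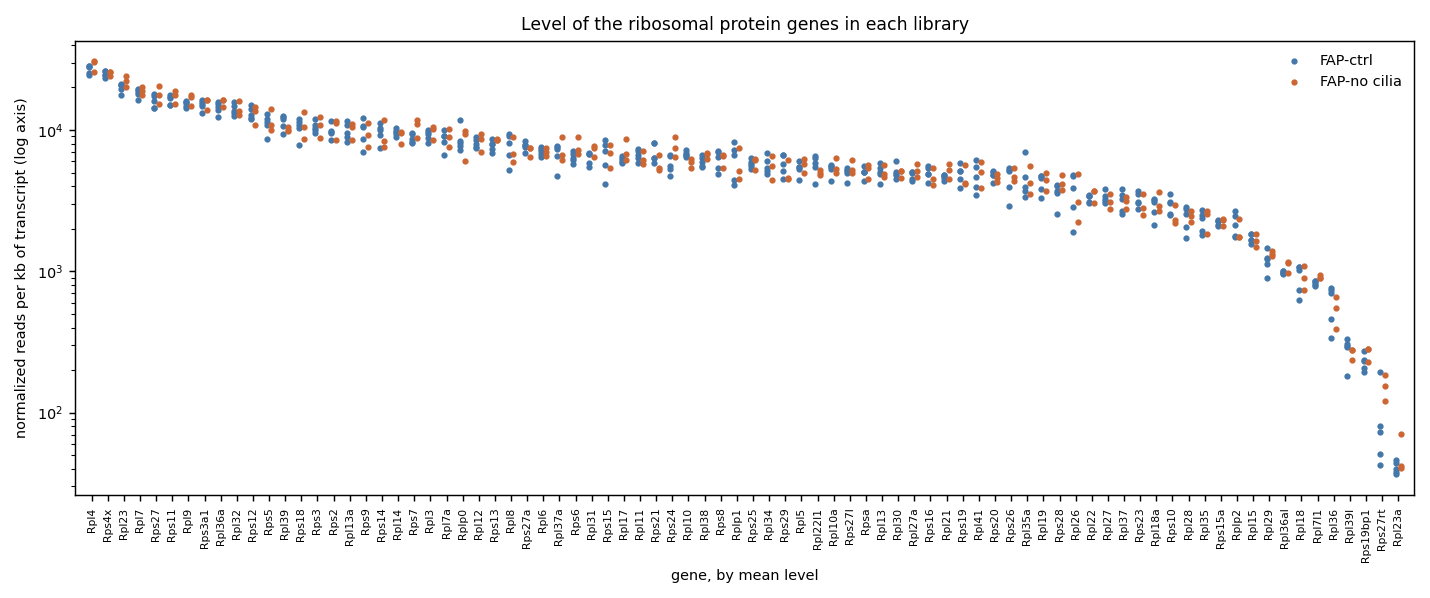
Level of 82 of the members, as normalized counts per kb of principal transcript on a log axis in each library (points, blue for FAP-ctrl and orange for FAP-no cilia), ordered by mean level. The members run from 44.8 per kb (Rpl23a) to 27601 per kb (Rpl4).

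Ribosomal protein genes have many processed pseudogenes, and reads of 50 bases that fit several places may be split or dropped. A median of 50.6% of a member's windows of 50 bases occurred in no transcript of another gene, 18 members had under 20% such windows, and 80 shared at least 1 window with an annotated pseudogene. Rpl23a had 14.3% own windows and shared windows with 28 pseudogenes, Rpl36 had 18.9% and 12, and Rps27rt 8.92% and 8. Rpl39l and Rps19bp1, also low, had 100% own windows and none. Across the 83 members the Spearman correlation between own windows and level per kb was -0.16, a description only, since the members share libraries. The levels of members with few own windows are therefore uncertain. Small nucleolar RNAs, which guide ribosomal RNA modification, lie inside 30 members (58 in all), and these members had a median of 6785 per kb against 5481 in the 53 without.

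Where a member has a near copy, one partner was counted several-fold higher per kb in most pairs. Rpl39, a small protein at the exit tunnel of the large subunit, was 32.0- to 51.5-fold higher per kb than Rpl39l in the 8 libraries. Rpl36a was 12.8- to 15.9-fold above Rpl36al, Rpl7 was 19.4- to 24.1-fold above Rpl7l1, and Rps27 was 2.68- to 3.52-fold above Rps27l and 91.1- to 341-fold above Rps27rt. Only 1.35% of the windows of Rps27 and 14.5% of those of Rpl36a were their own, so the folds of these pairs are uncertain. In the pair of Rpl22 and Rpl22l1 the near copy was higher per kb of principal transcript, at 130% to 190% of Rpl22 in every library. With the length of all annotated exons the mean levels were 2371 per kb for Rpl22 and 1504 for Rpl22l1, so their order depends on the length used. Rpl22, an RNA-binding protein of the large subunit, had 7116, 6961, 6285, 7047 and 6306 normalized counts in FAP-ctrl 1 to 5 and 7626, 7606 and 6258 in FAP-no cilia 1 to 3. Rpl22l1 had 3514, 3241, 3018, 3613 and 2292 against 2664, 2876 and 2719. The ranges overlapped in both genes, with log2 differences of 0.083 ± 0.094 (SE) and -0.17 ± 0.14 and limma adjusted p of 0.779 and 0.688. For Rpl3, which forms part of the peptidyl transferase region, the muscle copy Rpl3l was the gene with a mean of 0.653 that fell outside the members, while Rpl3 itself had means of 12414 ± 1002 (SD, n = 5) and 13112 ± 1460 (n = 3).

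The libraries held 15.3 M to 43.9 M gene reads, and 1 read was worth 0.610 to 1.79 normalized counts. The 10 FAP markers, among them Pdgfra and Col1a1, summed to between 727294 and 958595 normalized counts in each library. Other lists summed to at most 5430 for macrophages, 1884 for endothelium, 1071 for satellite cells, 272 for erythroid cells and 254 for muscle fibres, and no listed marker was at 0 in all libraries. Macrophage sums were 786 to 3138 (FAP-ctrl) against 1705 to 5430 (FAP-no cilia), endothelial sums 663 to 1077 against 792 to 1884, and satellite cell sums 478 to 1071 against 602 to 695. Of the tested markers, 17 of 18 for macrophages and 8 of 10 for endothelium were higher in FAP-no cilia (median log2 differences of 0.86 and 0.35). For satellite cells 2 of 4 were higher (-0.29), and for FAPs 7 of 10 (0.062). Muscle fibre sums did not overlap, at 211 to 254 against 95.9 to 195, with 0 of 4 tested markers higher in FAP-no cilia, and erythroid sums were 16.4 to 272 against 15.8 to 78.9, also with 0 of 4 higher. None of these markers passed the test, and their part in the results below was not tested. The nuclear RNA Malat1 had 4715 to 23728 against 5520 to 5837 (log2 difference -1.23, limma adjusted p = 0.345). Ift88 had 457 to 594 against 195 to 322 (log2 difference -1.14, limma adjusted p = 0.0895). By Xist and Y-linked genes, 2 FAP-ctrl and all 3 FAP-no cilia libraries were male and 3 FAP-ctrl libraries (3, 4 and 5) female. In bulk RNA, fewer cells of a type and less RNA per cell cannot be told apart.

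The members deviated together by library. For each member the log2 value in a library was set against that member's mean over the 8 libraries. The median of this deviation over the 83 members was 0.086, 0.13, -0.19, -0.033 and -0.031 in FAP-ctrl 1 to 5 and 0.063, 0.14 and -0.13 in FAP-no cilia 1 to 3. The number of members above their own mean was 67, 68, 8, 33 and 33 of 83, against 56, 77 and 8. FAP-ctrl 3 and FAP-no cilia 3 thus stood low, and FAP-ctrl 2 and FAP-no cilia 2 highest, with each group holding both kinds. The size factors centre all tested genes near 0 in every library (medians of 0.0045 to 0.012), so the members' shifts are relative to them. The 4840 genes with a mean of at least 1000, closer to the members in level, had medians of -0.014, -0.017, 0.030, 0.0063 and -0.11, against 0.096, 0.028 and -0.013. Relative to those genes the members stood at -0.22 in FAP-ctrl 3 and at -0.12 in FAP-no cilia 3, and the sign turned in FAP-ctrl 5 (0.074) and FAP-no cilia 1 (-0.034).

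**Figure D2:**
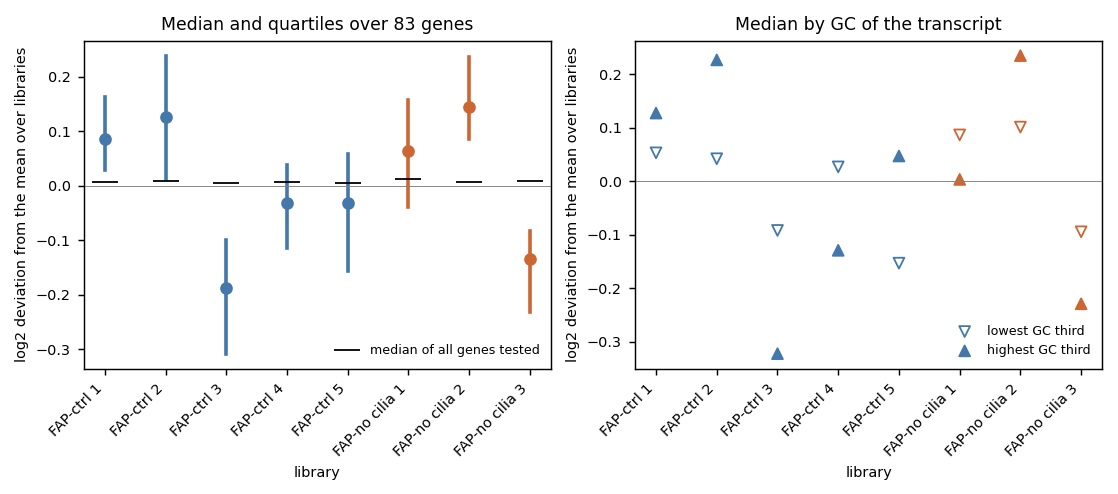
Deviation from the mean over the 8 libraries, in log2 units, by library. Left, the median (point) and quartiles (line) over the 83 members, with the median of all tested genes as a black dash. Right, the medians of the lowest (open) and highest (filled) 28 members by transcript GC. Member medians run from -0.19 (FAP-ctrl 3) to 0.14 (FAP-no cilia 2), and all tested genes are centred near 0 by the size factors.

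In each of these low libraries 8 members were above their own mean. The exceptions in FAP-ctrl 3 were Rpl26 (0.50), Rpl39 (0.19), Rpl39l (0.11), Rps27l (0.072), Rpl22l1 (0.027), Rps27a (0.020), Rps20 (0.018) and Rpl10 (0.016). In FAP-no cilia 3 they were Rpl35a (0.36), Rps27rt (0.30), Rps13 (0.087), Rpl7l1 (0.074), Rpl29 (0.066), Rpl30 (0.034), Rps24 (0.025) and Rpl38 (0.010). No gene was an exception in both, which says little with only 8 of the 83 members in each. Less the median of all tested genes, the members stood at -0.19 (FAP-ctrl 3) and -0.14 (FAP-no cilia 3). Library-total (CPM), upper-quartile, TMM and member-free scalings shift all genes of a library together. They therefore cannot change these values beyond the small effect of the pseudocount, and are no check on them.

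**Figure D3:**
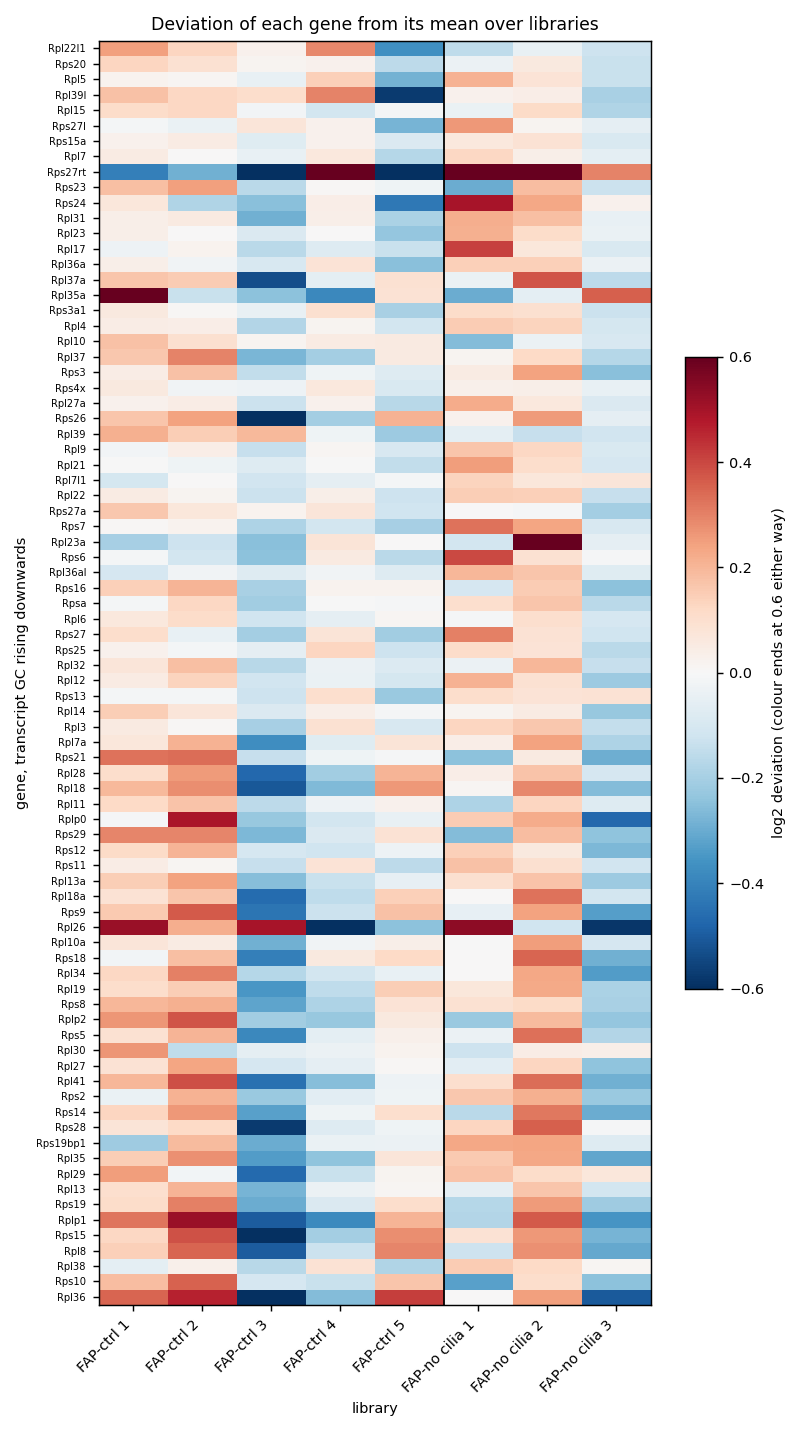
Deviation of 82 of the members from their own mean in each of the 8 libraries, in log2 units, with blue below and red above the mean, colours ending at 0.6 either way and genes ordered by the GC content of their transcript. The FAP-ctrl 3 and FAP-no cilia 3 columns are below the mean in most members.

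Large and small subunit genes had similar shifts, with the stalk proteins here counted in the large subunit. The median deviation was -0.18 for the large and -0.20 for the small subunit in FAP-ctrl 3, with -0.13 and -0.16 in FAP-no cilia 3. The shift differed with base composition. The 28 members with the highest GC content (53.6% to 60.8%) had medians of -0.32 and -0.23 in these libraries, and the 28 with the lowest (40.6% to 49.2%) had -0.092 and -0.094. Among all tested genes, the 20% with the highest GC less the 20% with the lowest gave 0.062, 0.29, -0.36, -0.16 and 0.30 in FAP-ctrl 1 to 5, against -0.18, 0.18 and -0.10. This trend and the member medians had opposite signs in FAP-ctrl 5 and FAP-no cilia 1 and the same sign in the other libraries. After the GC trend of all genes was taken out of each library, the member medians of the low libraries were -0.16 and -0.15, with 8 members above their mean in each. The share of reads from the mitochondrial genome was 3.14% for FAP-ctrl 3 and 1.25% for FAP-no cilia 3, within a range of 1.25% to 3.85%. Its part in the shift was not tested.

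The stalk proteins varied between libraries within each group. Rplp0, the scaffold of the stalk, had 11324, 15980, 9729, 10531 and 11019 normalized counts in FAP-ctrl 1 to 5 and 12649, 13280 and 8201 in FAP-no cilia 1 to 3. Rplp1 had 3602, 4119, 2040, 2214 and 3316 against 2547, 3715 and 2257. Rplp2 had 2376, 2573, 1715, 1691 and 2062 against 1695, 2255 and 1684. All 3 were highest in FAP-ctrl 2, and the groups overlapped. Their log2 differences were -0.052 ± 0.19, -0.087 ± 0.25 and -0.14 ± 0.16, none of which passed (limma adjusted p 0.948, 0.933 and 0.777). The signs of Rplp0 and Rplp1 turned when FAP-ctrl 2 was left out (0.065 and 0.034) or FAP-no cilia 3 was (0.17 and 0.062). With sex as a covariate the 3 differences were -0.27, -0.47 and -0.41 (adjusted p 0.869, 0.855 and 0.852).

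The within-group SD of log2 values had a median of 0.17 over the members and 0.14 over the 4840 genes with a mean of at least 1000. It was largest in Rps27rt (0.69), Rpl26 (0.57), Rpl36 (0.48), Rplp1 (0.42) and Rpl35a (0.39). Rpl26, which binds near the exit tunnel, had 2923, 2374, 2883, 1159 and 1724 normalized counts, against 2965, 1880 and 1362. Rpl35a had 3618, 2064, 1909, 1729 and 2399 against 1838, 2172 and 2903. Rpl26 was high in FAP-ctrl 3 and Rpl35a was highest of its group in FAP-no cilia 3, libraries that were low for most members. Rps4x varied least among the fixed named members, at 25405, 24045, 23873, 25485 and 22906 against 24916, 24989 and 23667, a within-group SD of 0.059 on the log2 scale.

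The comparison of FAP-no cilia with FAP-ctrl asked whether loss of Ift88 went with a change in ribosomal protein RNA. No member passed the test. In limma-trend with Benjamini-Hochberg adjustment over 14768 genes, 0 of the 83 members had an adjusted p under 0.05 (0.00677% of all genes did), and the smallest adjusted p was 0.358, for Rps24. At an unadjusted p under 0.05 there were 5 members, 6.02% of them, against 10.8% of all genes. DESeq2 and edgeR on the recovered reads also called 0 members, with 1.17% and 0% of all genes called. At an unadjusted p under 0.05 they had 4 members each, against 10.8% and 10% of all genes. Values of the 2 groups did not overlap in 2 members (2.41%), against 7.31% of all genes.

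Most differences were small. The log2 difference was under 0.1 in size in 48 members and under 0.2 in 72, and its median size was 0.084, against 0.14 for all tested genes and 0.095 for the 4840 genes with a mean of at least 1000. The 95% interval of the difference stayed within a 1.5-fold change either way for 76 members (91.6%), against 57.5% of tested genes. The other 7 were Rps24, Rps27rt, Rps28, Rpl23a, Rpl26, Rpl36 and Rplp1.

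The difference was above 0 in 54 members and below 0 in 29, with a median of 0.042, against 0.0077 and 51.5% above 0 for all genes. This direction was not stable. With sex as a covariate 28 were above 0 and the median was -0.096, against -0.0025 for all genes. Leaving out FAP-ctrl 3 gave 38 members and -0.027, leaving out FAP-no cilia 2 gave 32 and -0.050, and leaving out FAP-no cilia 3 gave 68 and 0.15. Under CPM scaling 33 were above 0, but there the median moved for members (-0.028) and all genes (-0.062) alike, and the members' median less that of all genes was 0.034 in both scalings. Without the near copies and the 2 genes that are not subunits, 50 of 77 were above 0 with a median of 0.035. By class, 29 of 42 large subunit members were above 0 (median 0.052, -0.21 to 0.26), as were 20 of 31 small subunit members (0.031, -0.26 to 0.40), 0 of 3 stalk proteins (-0.087), 3 of 5 near copies (0.12) and both of the remaining genes.

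**Figure D4:**
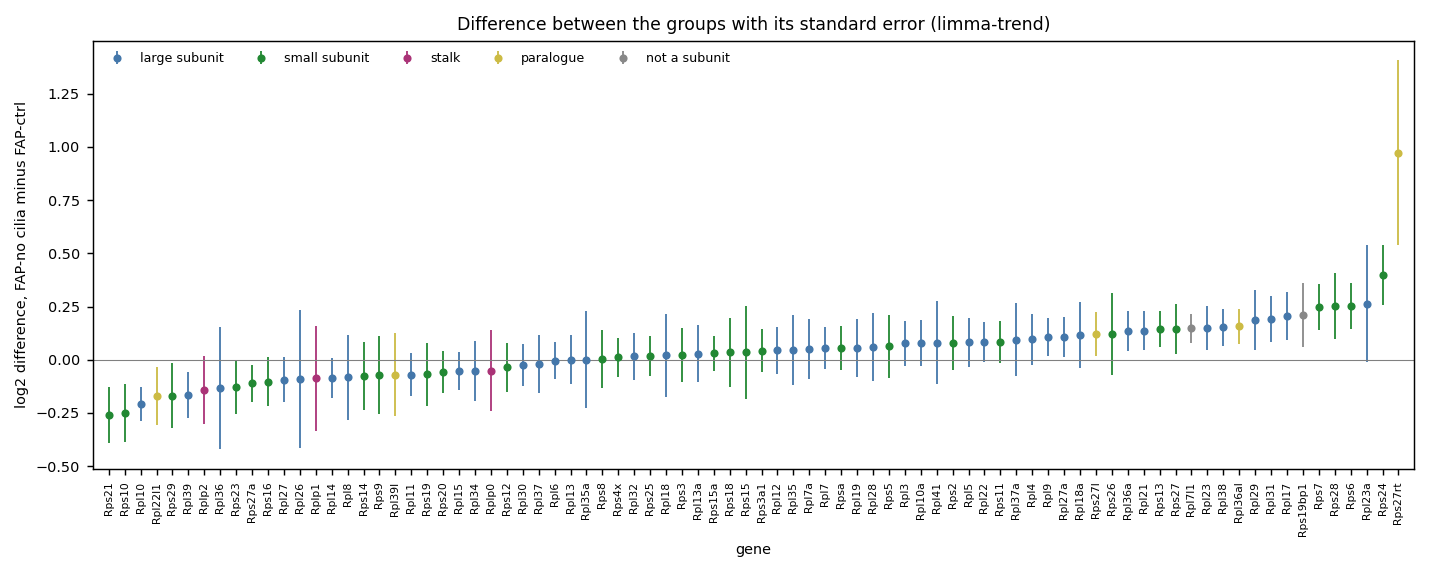
Log2 difference of FAP-no cilia against FAP-ctrl for 82 of the members (points) with the limma SE (bar), ordered by the difference and coloured by class. The members lie between -0.26 (Rps21) and 0.97 (Rps27rt), and no member passed the threshold of 0.05 on the adjusted p.

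The share of all gene reads that fell on members was 2.28%, 2.30%, 1.93%, 2.19% and 2.22% in FAP-ctrl 1 to 5 and 2.09%, 2.32% and 2.03% in FAP-no cilia 1 to 3. The means were 2.19% ± 0.147 (SD, n = 5) and 2.15% ± 0.153 (n = 3), and the difference of -0.037 percentage points had p = 0.714 in an exact two-sided permutation test over 56 splits, where 0.0179 is the smallest possible. For the ratio of the subunits, the stalk proteins were again counted in the large subunit. The log2 ratio of summed large to summed small subunit counts was 0.365, 0.364, 0.366, 0.327 and 0.357 (FAP-ctrl) against 0.378, 0.339 and 0.373 (FAP-no cilia). Its means of 0.356 ± 0.0164 and 0.363 ± 0.0214 differed by 0.0072 (same exact test, p = 0.643). This ratio does not depend on the size factor, and it varied little between libraries. Shares and the deviations above come from the same counts. Both were low in FAP-ctrl 3 and FAP-no cilia 3, but FAP-no cilia 1 had a share of 2.09% with a median deviation of 0.063.

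Among single members, Rps24, a small subunit protein mutated in Diamond-Blackfan anaemia, had the smallest p. The gene, ENSMUSG00000025290, lies at chr14:24487125-24496959 on the plus strand of GRCm38. It had 10698, 8990, 8569, 10484 and 7579 normalized counts (FAP-ctrl) against 14348, 11956 and 10370 (FAP-no cilia). All 3 FAP-no cilia libraries were above the FAP-ctrl mean of 9264 ± 1317 (SD), but the lowest lay within the FAP-ctrl range. The log2 difference was 0.40 ± 0.14 (SE, limma adjusted p = 0.358), and ranged from 0.28 to 0.51 over the alternatives, with adjusted p of 0.189 to 0.856.

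The 1 gene of all 14768 that passed the test was Rps24-ps3, a processed pseudogene at chrX:79195047-79195448 (plus strand, GRCm38) that shares 210 of the 1564 windows of 50 bases (13.4%) of the Rps24 transcript. It had 342, 1081, 1110, 299 and 888 normalized counts, against 7.57, 1.79 and 5.25 (log2 difference -6.92 ± 0.52, limma adjusted p = 0.00139). The pseudogene amounted to 2.86% to 12.9% of Rps24 in the FAP-ctrl libraries, against 0.015% to 0.053%. Both genes summed to 10008 ± 1019 and 12229 ± 2004, a log2 difference of 0.28 in place of 0.40. Whether reads of one were assigned to the other was not tested.

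Rps6, a small subunit protein known as the target of S6 kinases, had 5933, 5554, 5042, 6215 and 5360 normalized counts (FAP-ctrl) against 7870, 6380 and 5957 (FAP-no cilia). The log2 difference was 0.25 ± 0.11 (SE, limma adjusted p = 0.436) and the groups overlapped, and it was 0.14 without FAP-no cilia 1. Rps7, a small subunit protein that also binds Mdm2, had 8951, 9038, 7817, 8252 and 7761 against 11142, 10483 and 8330 (0.25 ± 0.11, adjusted p = 0.456), and was 0.14 with sex as a covariate. Rps27rt, the low near copy of Rps27, had 27.4, 30.0, 15.8, 72.0 and 19.1 against 69.4, 57.4 and 45.5 (0.97 ± 0.44, adjusted p = 0.461), with FAP-ctrl 4 above all FAP-no cilia libraries. Rpl7l1 had 2072, 2233, 2059, 2147 and 2209 against 2446, 2333 and 2344. It was the 1 member whose FAP-no cilia values all lay above the FAP-ctrl range (3.62% of tested genes were), at 0.15 ± 0.067 and an adjusted p of 0.467.

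Rpl10, an X-linked large subunit protein added late in assembly, was the 1 member whose FAP-no cilia values all lay below the FAP-ctrl range (3.69% of tested genes were). The gene, ENSMUSG00000008682, lies at chrX:74270812-74273135 on the plus strand. It had 6178, 5849, 5531, 5655 and 5675 normalized counts (FAP-ctrl) against 4574, 5334 and 5117 (FAP-no cilia), with means of 5778 ± 251 and 5008 ± 391 (SD). The log2 difference was -0.21 ± 0.079 (SE, limma adjusted p = 0.396), and ranged from -0.28 to -0.14 over the alternatives, with adjusted p of 0.262 to 0.852. As the groups do not overlap, leaving out 1 library could not turn its sign. Only 14.6% of its windows were its own, and the others were shared with 15 genes, 14 of them annotated pseudogenes. The other X-linked members went in different directions, Rpl39 at -0.17 ± 0.11, Rpl36a at 0.13 ± 0.095 and Rps4x at 0.011 ± 0.092, and none passed the test.

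Rps21 had 3165, 3188, 2297, 2479 and 2514 normalized counts against 2134, 2624 and 2063, a log2 difference of -0.26 ± 0.13 (limma adjusted p = 0.516). Rps10 had 2758, 3102, 2259, 2207 and 2717 against 1934, 2608 and 2042 (-0.25 ± 0.14, adjusted p = 0.540). With sex as a covariate Rps21 was at -0.49 and Rps10 at -0.43 (adjusted p 0.769 and 0.852). Both carry a TOP run at the start, as Rps6 does, which had a difference above 0. Rps27a, made as a fusion with ubiquitin, had 6605, 6179, 5979, 6208 and 5435 against 5904, 5864 and 5125 (-0.11 ± 0.088, adjusted p = 0.686). Rpsa, which also acts as a laminin receptor, had 9740, 10694, 8487, 9802 and 9768 against 10506, 10993 and 8783 (0.055 ± 0.10, adjusted p = 0.886).

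**Figure D5:**
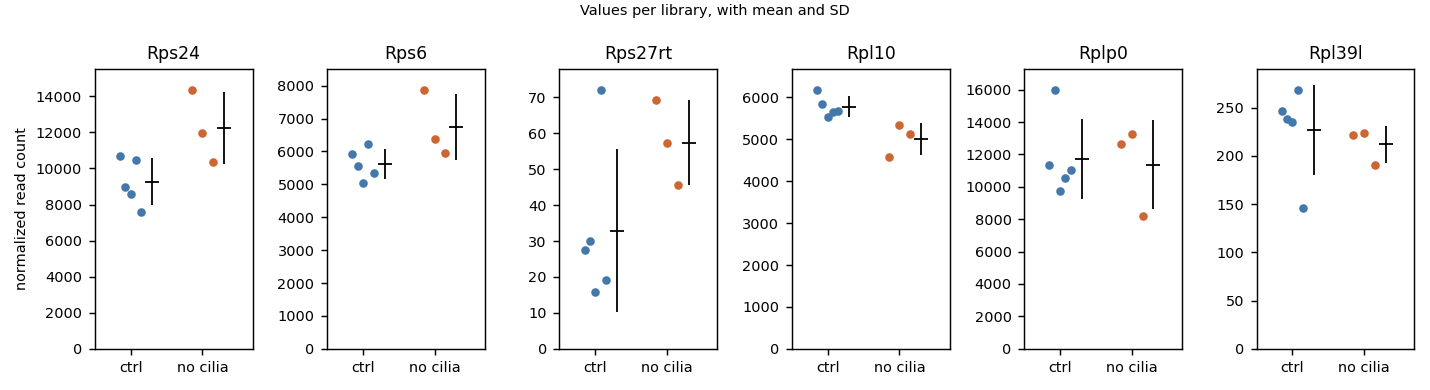
Normalized counts of Rps24, Rps6, Rps27rt, Rpl10, Rplp0 and Rpl39l in each of the 8 libraries (points), with the group mean (dash) and SD (bar), on linear axes from 0. The groups do not overlap in Rpl10, and Rps24 has values of 7579 to 10698 in FAP-ctrl against 10370 to 14348 in FAP-no cilia.

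Other genes of the translation machinery were set beside the members as whole lists. Of 7 elongation factors and related abundant RNAs, 5 had a difference above 0 and 0 passed the test, with a median of 0.029. Eef1a1, which delivers aminoacyl-tRNA, had the largest at 0.19 ± 0.19 (limma adjusted p = 0.743). Their library medians were -0.17 for FAP-ctrl 3 and -0.10 for FAP-no cilia 3, the lowest of each group, as for the members. Of 13 subunits of initiation factor 3, 12 were above 0 with a median of 0.11, and of 48 ribosome biogenesis factors 40 were, with a median of 0.070, and 0 of either list passed. Initiation factor 3 medians were -0.11 for FAP-ctrl 3 and -0.069 for FAP-no cilia 3, also the lowest of each group. Biogenesis factor medians were -0.090 and -0.107 there, but FAP-ctrl 5 was lower than FAP-ctrl 3, at -0.106. Among the biogenesis factors, Dkc1, the pseudouridine synthase, had 0.18 ± 0.085 (adjusted p = 0.476). Rack1, a scaffold on the small subunit, and Fau, the source of a small subunit protein, lie outside the symbol rule and had 0.038 (adjusted p = 0.941) and -0.0068 (adjusted p = 0.995).

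Of 75 mitochondrial ribosomal protein genes, 49 had a difference above 0 with a median of 0.057, and 0 passed. Their library medians ran from -0.042 to 0.016 (FAP-ctrl) and from 0.037 to 0.056 (FAP-no cilia), with -0.018 for FAP-ctrl 3 and 0.037 for FAP-no cilia 3. Of 15 regulators of ribosomal protein mRNA translation, 8 were above 0 with a median of 0.0060 and 0 passed. The library medians of these regulators were 0.0040 for FAP-ctrl 3 and -0.016 for FAP-no cilia 3. Rictor, a subunit of mTOR complex 2, had the smallest p among them, at -0.29 ± 0.11 (limma adjusted p = 0.372). Of 5 tested snoRNA host genes, 2 were above 0 and 0 passed, and Gas5, whose RNA also begins with a TOP motif, had -0.14 ± 0.072 (adjusted p = 0.536). The host genes had library medians of -0.0045 for FAP-ctrl 3 and 0.019 for FAP-no cilia 3.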

How the data were processed

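Stranded libraries of total RNA from FAPs gave single reads of 50 bases, per the labels' protocols. The authors aligned reads with STAR to GRCm38 and normalized counts with DESeq, per the labels and the submitters' processing notes. Neither the counting tool nor its strand setting is given in the sources used here. The deposited values are a normalized signal per gene, each read count over its library's size factor, and all values (100%) were whole multiples of 1 read within 0.01 reads, so reads were recovered. Symbols came from GENCODE M21 (32919 of 37991 identifiers matched).

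Values were transformed to log2(value + 1), which understates the change of low genes, after a filter of at least 10 in at least 3 libraries (14768 genes, all 83 members). Groups were compared with limma-trend 3.58.1 in R 4.3.3 and Benjamini-Hochberg adjustment at 0.05. The code was tried on simulated counts with 200 genes changed by a log2 of 2, of which 99.5% were recovered, with 8 false calls. Changes of that size are far above most member differences, and shared library shifts were not simulated. The trial therefore does not show how well small differences would be found. Single values per library used exact permutation tests. Alternatives were edgeR 4.0.16, DESeq2 1.42.0, voom, other scalings, filters and pseudocounts, a replicate block, sex as a covariate and leaving out each library. A GC correction and a fit of replicates 1 to 3 without a block were added after seeing the data. Members, lists and alternatives were chosen with earlier results of these data known. Named genes were the stalk proteins, fixed members and near-copy pairs, the 5 smallest p in each direction, the 5 highest and 5 lowest levels per kb, the 5 largest within-group SDs, and up to 3 genes per related list. Rps28, Rps20, Rps13, Rpl29, Rpl30, Rpl38 and Rpl15 were named after their values were seen. Of the members, 1 is counted in every total but is not reported singly here.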

Additional observations from a re-analysis of the deposited data

Results flagged for a closer look

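In 4 of 34 values examined, 1 of the 5 FAP-ctrl libraries stood apart from the others by a gap of more than 0.710 of the group's range (Dixon's 95% limit, which chance passes in about 1 in 20 groups). The log2 ratio of large to small subunit counts was 0.327 in FAP-ctrl 4 and 0.357 to 0.366 in the others. Rpl39l had 146 normalized counts in FAP-ctrl 5 and 235 to 268 in the others. Rplp0 had 15980 in FAP-ctrl 2 against 9729 to 11324, and Rps27rt had 72.0 in FAP-ctrl 4 against 15.8 to 30.0.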

How the results depend on the processing

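No member passed the test under any of the 24 alternatives. Among all tested genes 173 passed in DESeq2 and at most 3 under each other alternative, so this says little particular to the members. The alternative without near copies and non-subunits is the main fit read on fewer members and could not add a call. The number of members above 0 was 28 with sex as a covariate, where the median was -0.096, and from 32 to 68 when 1 library was left out, with medians of -0.050 to 0.15. CPM and upper-quartile scaling shift all genes together (median of all genes -0.062 and -0.015, against 0.0077), so the 33 members above 0 under CPM and the CPM and upper-quartile values below are that common shift. Leaving out 1 library gave a share difference of -0.124 to 0.022 percentage points, the positive value without FAP-no cilia 3, and a subunit ratio difference of -0.00018 to 0.019, which was -0.017 without the 5 highest members. Rps4x was -0.058 under CPM, -0.012 under upper-quartile scaling, -0.012 with sex and -0.021 with the GC correction, and -0.010 to 0.037 with 1 library left out. Rpsa was -0.015 under CPM, -0.022 with sex and -0.0098 to 0.15 with 1 library left out. The corresponding ranges were -0.18 to 0.17 for Rplp0, -0.30 to 0.062 for Rplp1 and -0.22 to 0.0071 for Rpl39l, and with sex these were -0.27, -0.47 and -0.19. With sex Rpl39 was -0.29 and Rpl22l1 -0.29. The cause of the other changes was not tested. With the replicate number as a block (libraries 1 to 3 of each group), 0 members passed, 9 had an unadjusted p under 0.05 against 5 without the block in the same libraries, and the median was 0.024 with 47 above 0 in both. The share of all genes under 0.05 was not computed for these fits, so the 9 and the 5 say nothing particular to the members. Same-numbered libraries correlated at -0.070, 0.14 and 0.036 over genes, within the range of differently numbered ones (-0.26 to 0.35). These values cannot decide whether the numbers mark pairs. With 3 FAP-no cilia libraries, all of them male, sex and group could be separated only through the 2 male FAP-ctrl libraries.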
